A study of Mus musculus with 6 samples.

Results

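The growth hormone axis of the liver was followed through 10 genes in RNA-Seq counts from 6 livers. The genes are *Ghr*, *Jak2*, *Stat5a*, *Stat5b*, *Igf1*, *Igfals*, *Socs2*, *Cish*, *Bcl6* and *Cux2*. They were chosen by name, each matched 1 row of the 54532 genes in the deposited table, and all 10 had enough reads to be among the 15449 genes tested. Livers came from 3 g*Spns1*-cKO mice and 3 control mice, with 1 library per mouse. The g*Spns1*-cKO mice were C57BL/6 animals homozygous for a floxed *Spns1* allele that also carried Rosa26Cre-ERT2, a ubiquitously expressed Cre that tamoxifen activates. Tamoxifen was given at 50 mg/kg on postnatal days 11, 13 and 15 to delete exon 3 in the whole body. The methods name floxed littermates without Cre as the controls, whereas the sample labels call them WT, and whether they received tamoxifen is not given in the sources used here. The age at which these livers were taken and the sex of the mice are also not given in these sources. *Spns1* encodes a lysosomal lysolipid transporter.

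Growth hormone binds its receptor on hepatocytes, and the kinase JAK2, which is bound to that receptor, then phosphorylates the transcription factors STAT5A and STAT5B. STAT5 drives transcription of *Igf1*, the endocrine growth factor, and of *Igfals*, whose product holds IGF-1 in a stable circulating complex. It also induces *Socs2* and *Cish*, whose products switch the signal off. In rodents the secretion of growth hormone is pulsatile in males and nearly continuous in females, and through STAT5 this pattern sets the expression of many liver genes, with the repressors BCL6 higher in male livers and CUX2 higher in female livers. The counts give transcript levels only, so phosphorylation and hormone levels were not seen.

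The libraries held between 30350002 and 35295611 counts. Counts were brought to a common library size by TMM and are given as CPM. The TMM factors ranged from 0.834 to 0.873 for controls as against 1.16 to 1.18 for g*Spns1*-cKO, so that small differences depend on the scaling. The floor of 3 counts corresponded to at most 0.119 CPM in any library, for counting error only. *Spns1*, the targeted gene, had 1008, 1562 and 875 counts in controls, as against 642, 1175 and 698 in g*Spns1*-cKO livers. Its log2 fold change was -0.87 (standard error 0.25, adjusted p = 0.030), and with library size only it was -0.43 (adjusted p = 0.213). The call was also lost without control replicate 2, g*Spns1*-cKO replicate 1 or g*Spns1*-cKO replicate 3, at -0.68, -0.74 and -0.74, and with upper-quartile scaling, at -0.74 (adjusted p = 0.0635). The 10 hepatocyte markers found in the table summed to 113487 to 122443 CPM in the controls, as against 69658 to 80902 CPM after deletion of *Spns1*, and *Alb* alone made up 69348 CPM of this sum on the control mean and 41886 CPM on the g*Spns1*-cKO mean. The 12 macrophage and Kupffer cell markers were all called higher, where 21.3% of all tested genes were. The sum of these markers went from 252 to 400 CPM in controls to 984 to 1353 CPM in g*Spns1*-cKO livers. In bulk liver, fewer cells of a type and less RNA per cell cannot be told apart. All 6 libraries carried Y-linked transcripts, with 1731 to 2568 counts of *Ddx3y*, 976 to 2213 of *Eif2s3y*, 332 to 743 of *Kdm5d* and 324 to 543 of *Uty*, and at most 5 counts of *Xist*.

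Of the 10 growth hormone axis genes, 3 passed the threshold (adjusted p under 0.05) as lower in the g*Spns1*-cKO livers, namely *Ghr*, *Igf1* and *Igfals*. Among all genes tested 20.5% were called lower, 21.3% higher and 41.8% in either direction, so the share of members called is near the background. In none of the 10 was an increase called by edgeR, while 1 had an unadjusted p under 0.05 as higher, and 1 was called higher by DESeq2 and 0 by limma-voom. That gene was *Cux2*, which had the largest difference of the 10 and also the largest spread between mice. The median log2 fold change of the 10 genes was 0.039, beside 0.014 for all genes tested, and without g*Spns1*-cKO replicate 2 it was -0.36. The groups did not overlap in 5 of the 10 genes, 2 of them higher and 3 lower, where 54.1% of all tested genes showed no overlap (27.1% higher and 26.9% lower).

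**Figure D1:**
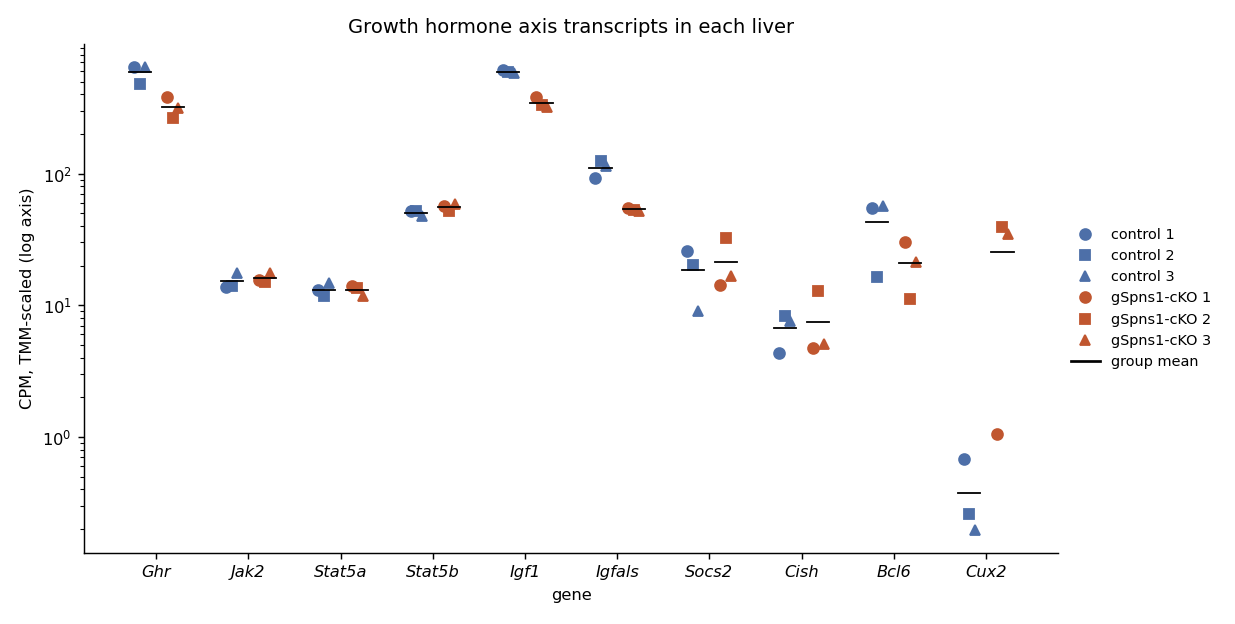
TMM-scaled CPM on a log axis for each of the 10 genes, with 1 symbol per mouse (blue, control; orange, g*Spns1*-cKO; circle, square and triangle for replicates 1, 2 and 3) and the group mean as a line. The 3 g*Spns1*-cKO livers lie below all controls for *Ghr*, *Igf1* and *Igfals*, and for *Cux2* replicate 1 lies at 1.06 CPM while replicates 2 and 3 lie at 39.4 and 35.1 CPM.

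Compared per length of transcript, the receptor and the circulating products were the most abundant members in control livers. *Ghr* had 65.1 ± 10.2 CPM per kilobase, *Igf1* 60.2 ± 1.81 and *Igfals* 52.1 ± 7.62 (SD, n = 3), and the ranges of neighbours in this order overlapped. *Stat5b* followed at 9.10 ± 0.455 CPM per kilobase, apart from both its neighbours. *Bcl6* (6.37 ± 3.38) overlapped with *Jak2* (3.01 ± 0.425), and *Socs2* (1.93 ± 0.890) overlapped with *Stat5a* (1.84 ± 0.215). *Cish* (1.05 ± 0.327) and *Cux2* (0.0375 ± 0.0258) stood last, each apart from the gene before it. In g*Spns1*-cKO livers the first 4 genes kept their places, at 35.5 ± 6.54 CPM per kilobase for *Ghr*, 34.9 ± 3.36 for *Igf1*, 25.3 ± 0.760 for *Igfals* and 10.1 ± 0.610 for *Stat5b*. *Cux2* came to 2.50 ± 2.08 CPM per kilobase on the mean, and the ranges from *Jak2* down to *Cish* overlapped from each gene to the next.

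*Ghr* (ENSMUSG00000055737) encodes the growth hormone receptor (GRCm38 chromosome 15, 3317760 to 3583492, minus strand). Its level was 642, 483 and 644 CPM in controls, as against 383, 265 and 316 CPM in the g*Spns1*-cKO livers. The groups were apart, and replicate 2 was the lowest of each. The log2 fold change was -0.88 (standard error 0.18), with a Benjamini-Hochberg adjusted p of 0.00309 by the quasi-likelihood test of edgeR, so that g*Spns1*-cKO livers held 54.5% of the control mean. The exact two-sided permutation test gave p = 0.1, the smallest that 3 mice against 3 allow. With library size only the difference was -0.43 (adjusted p = 0.0511), and the call was lost.

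*Jak2* (ENSMUSG00000024789), the kinase gene (chromosome 19, 29251828 to 29313080), had 13.8, 14.1 and 17.6 CPM in controls, as against 15.7, 14.96 and 17.5 CPM in g*Spns1*-cKO livers. Its log2 fold change was 0.08, with a 95% interval from -0.22 to 0.38 and an adjusted p of 0.656. The 2 STAT5 genes are neighbours on chromosome 11, *Stat5b* (ENSMUSG00000020919) from 100780731 to 100850724 and *Stat5a* (ENSMUSG00000004043) from 100859351 to 100885169, on opposite strands. *Stat5a* had 12.98, 11.7 and 14.7 CPM in controls, as against 13.9, 13.6 and 11.8 CPM in g*Spns1*-cKO livers, and its log2 fold change was -0.0048 (95% interval -0.31 to 0.30, adjusted p = 0.982). *Stat5b* had 52.1, 51.6 and 47.5 CPM against 57.1, 52.2 and 58.7 CPM. All 3 g*Spns1*-cKO livers were above the controls for *Stat5b*, but the log2 fold change of 0.15 (95% interval -0.07 to 0.37) had an adjusted p of 0.254.

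The ratio of *Stat5a* to *Stat5b* reads needs no scaling between libraries. It was 0.249, 0.226 and 0.310 in controls, as against 0.244, 0.261 and 0.2003 in g*Spns1*-cKO livers, and the groups overlapped (exact permutation test, p = 0.5). The genes are close paralogs, so that reads in shared sequence are uncertain, and 72 exonic bases of *Stat5a* overlap *Stat3* on the opposite strand, a gene with 28890 counts over all libraries against 2582 for *Stat5a*. With library size only, *Jak2*, *Stat5a* and *Stat5b* were called higher, with log2 fold changes of 0.53, 0.44 and 0.59 (adjusted p = 0.00633, 0.0175 and 0.000929), where the median of all genes moved to 0.46. Upper-quartile scaling also called *Stat5b* higher, at 0.28 (adjusted p = 0.0470), beside a median of all genes of 0.14.

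*Igf1* (ENSMUSG00000020053, chromosome 10, 87858265 to 87937042, plus strand) was the most even gene of the axis in control livers. It had 613, 597 and 577 CPM there and 383, 331 and 321 CPM in g*Spns1*-cKO livers. The highest g*Spns1*-cKO liver lay well below the lowest control. The log2 fold change was -0.79 (standard error 0.13, adjusted p = 0.00116), which left 58.0% of the control mean. Among all tested genes 9.46% had a lower log2 fold change.

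*Igfals* (ENSMUSG00000046070, chromosome 17, 24878770 to 24882008, plus strand) had 92.3, 124 and 114 CPM in control livers. The g*Spns1*-cKO livers had 55.3, 52.6 and 52.4 CPM, with a coefficient of variation of 3.00%. The groups were apart, and the log2 fold change was -1.04 with a standard error of 0.12 (adjusted p = 0.000154), which left 48.6% of the control mean. *Igfals* kept its call in each alternative fit, with log2 fold changes between -1.17 and -0.60, and so did *Igf1*, between -0.87 and -0.34.

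The 3 genes that fell were also compared with each other within a library. The ratio of *Igf1* to *Ghr* reads was 0.956, 1.24 and 0.896 in controls, as against 1.00, 1.25 and 1.02 in g*Spns1*-cKO livers, and the log2 difference was 0.09 (exact permutation test, p = 0.5). The ratio of *Igfals* to *Igf1* was 0.151, 0.207 and 0.197 in controls, as against 0.144, 0.159 and 0.163 in g*Spns1*-cKO livers (log2 difference -0.24, exact permutation p = 0.3). The groups overlapped for both of these ratios, which were among 7 computed.

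Transcripts typical of hepatocytes were lower on average, but not all of them fell. Of the 10 hepatocyte markers, 5 were called lower and 0 higher, where 20.5% of all tested genes were called lower and 21.3% higher. The mean log2 CPM of the markers differed by -0.51 between the groups. *Alb*, which encodes albumin, differed by -0.73 on the log2 scale, with a standard error of 0.18 (adjusted p = 0.0101). *Serpina1c* differed the most of the 10 markers, at -1.998 (adjusted p = 0.000119), and how far the marker mean rests on it was not tested. *Fgb*, *Apoa1* and *Apob* were also called lower, at -0.98, -0.76 and -0.46. *Ttr* and *Hnf4a* were at -0.47 and -0.42 and were not called (adjusted p = 0.0545 and 0.0666). *Cps1*, of the urea cycle, was at 0.36 with all g*Spns1*-cKO livers above the controls, *Trf*, which encodes transferrin, at 0.33, and *Ahsg*, which encodes fetuin-A, at -0.0087 (adjusted p = 0.1004, 0.169 and 0.977). Set against the mean of these markers in each library, a measure chosen after the data were seen, *Igfals* differed by -0.52 on the log2 scale and its groups stayed apart (exact permutation p = 0.1). On the same measure *Ghr* differed by -0.37 and *Igf1* by -0.28, and their groups overlapped (exact permutation p = 0.2 for both). *Jak2*, *Stat5a* and *Stat5b* were 0.60, 0.51 and 0.66 higher relative to the markers, with no overlap between groups (exact permutation p = 0.1 for each). Their own log2 fold changes were 0.08, -0.0048 and 0.15. A gene that does not change comes out higher on this measure, because the markers differed by -0.51. The separation is therefore not a result about these genes, and the part of other cell types was not tested.

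**Figure D2:**
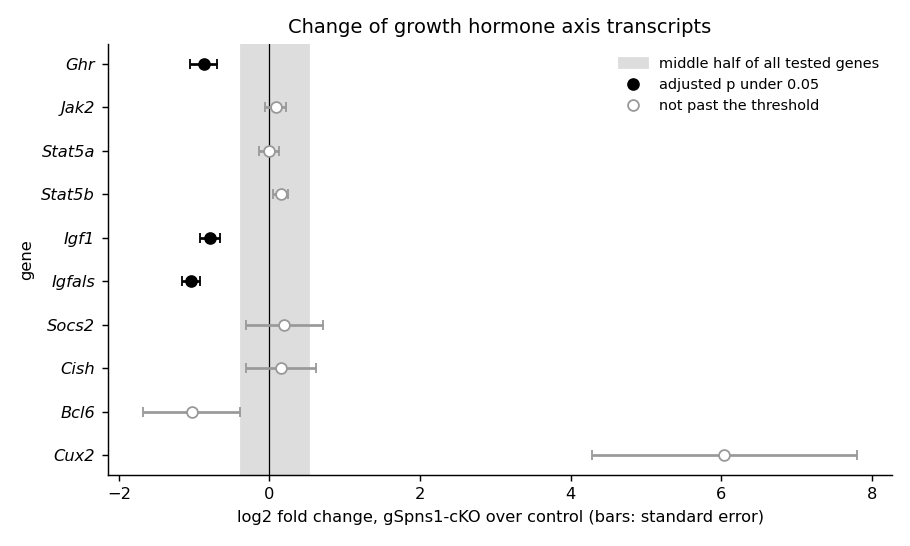
Log2 fold change of the 10 genes in g*Spns1*-cKO over control livers (x axis), with standard errors as bars, filled where the adjusted p is under 0.05. The grey band is the middle part of all tested genes, from the lower quartile of -0.37 to the upper quartile of 0.53, and *Ghr*, *Igf1*, *Igfals*, *Bcl6* and *Cux2* lie outside it.

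The element TTCNNNGAA, to which STAT5 binds, was searched in the RefSeq windows of 250 bases before to 50 after each transcription start (GRCm38.p6), and reads the same on both strands. Windows were found for 9 of the 10 genes, 16 in all, and *Socs2* had none. The element was in windows of 3 genes, *Igfals*, *Cish* and *Bcl6*, where 9.55% of all 27025 genes had it. It was in 5 of the 16 windows, and in 8.30% of all 32851 windows. These sites are shown, 5′ to 3′ on the strand of the gene and with the element in capitals, because they place the letters beside a gene that fell, a feedback gene and a repressor gene.
*Igfals*, starting 58 bases before a start, chr17:24878163-24878191: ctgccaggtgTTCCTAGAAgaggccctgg
*Igfals*, starting 236 bases before another start, chr17:24877598-24877626: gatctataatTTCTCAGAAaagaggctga
*Cish*, both copies at and just after the start, chr9:107296654-107296683: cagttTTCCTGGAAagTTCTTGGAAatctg
*Bcl6*, starting 168 bases before an internal start, chr16:23981433-23981461: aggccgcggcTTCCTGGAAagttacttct
*Bcl6*, starting 122 bases before it, chr16:23981387-23981415: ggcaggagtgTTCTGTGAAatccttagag
*Bcl6*, starting 88 bases before it, chr16:23981353-23981381: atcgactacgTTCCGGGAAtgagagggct
*Bcl6*, starting 118 bases before the outer start, chr16:23988952-23988980: agcaaattagTTCTCAGAAttccagaggc
Of these 3 genes, *Igfals* was called lower, and *Cish* and *Bcl6* were not called. The *Igfals* window nearest to the gene start given above, with its start at 24878747, held 0 copies. Both *Igfals* sites lie before starts further upstream, at 24877844 and 24878231. *Ghr* and *Igf1* fell without these letters in their windows. Sequence outside the windows was not searched, so these genes may hold the element elsewhere, and binding was not measured.

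The feedback genes varied more between mice than between groups. *Socs2* (ENSMUSG00000020027), whose product dampens growth hormone receptor signalling, lies on chromosome 10 from 95385362 to 95417180. It had 25.8, 20.4 and 9.13 CPM in controls, as against 14.3, 32.6 and 16.7 CPM in g*Spns1*-cKO livers. The lowest value was control replicate 3 and the highest g*Spns1*-cKO replicate 2. The log2 fold change was 0.20 (95% interval -1.10 to 1.5, adjusted p = 0.787), and an interval this wide holds both a 2-fold decrease and a 2-fold increase.

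*Cish* (ENSMUSG00000032578, chromosome 9, 107296026 to 107302784), a feedback gene of the same family, had 4.34, 8.25 and 7.63 CPM in control livers. It had 4.70, 12.7 and 5.06 CPM in g*Spns1*-cKO livers, where replicate 2 was again the highest. Its log2 fold change was 0.16 (95% interval -0.96 to 1.27, adjusted p = 0.814). Without g*Spns1*-cKO replicate 2 the log2 fold changes of *Socs2* and *Cish* turned to -0.25 and -0.47, without control replicate 3 that of *Socs2* was -0.13, and without control replicate 1 that of *Cish* was -0.10, none of them past the threshold. Exons of *Cish* share 261 bases with *Gm17040* on the opposite strand, which had 48 counts over all libraries.

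*Bcl6* and *Cux2* encode transcriptional repressors of the sex-biased liver programme. *Bcl6* (ENSMUSG00000022508, chromosome 16, 23965052 to 23988852) had 54.7, 16.5 and 56.8 CPM in controls, as against 30.2, 11.1 and 21.1 CPM in g*Spns1*-cKO livers. Replicate 2 was the lowest mouse of each group, and the groups overlapped through the control replicate 2. The log2 fold change of -1.03 (standard error 0.64, 95% interval -2.73 to 0.66) had an adjusted p of 0.267.

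*Cux2* (ENSMUSG00000042589, chromosome 5, 121856366 to 122050102, minus strand) had 19, 8 and 5 counts in controls, as against 38, 1511 and 1379 in g*Spns1*-cKO livers. These were 0.676, 0.260 and 0.198 CPM against 1.06, 39.4 and 35.1 CPM. All 3 g*Spns1*-cKO livers were above all controls. Replicates 2 and 3 exceeded the control mean 98.6-fold, whereas replicate 1 exceeded it 2.80-fold. The log2 fold change of 6.04 (standard error 1.76, 95% interval 1.27 to 10.8) did not pass the threshold, with an adjusted p of 0.0557. Of all tested genes, 23 had a higher log2 fold change. This rank lends no support, because control counts were low and *Cux2* passed the read filter through the g*Spns1*-cKO livers. Without g*Spns1*-cKO replicate 1 the log2 fold change was 6.60 (adjusted p = 7.57e-07), and with any other mouse left out the adjusted p was between 0.127 and 0.162. DESeq2 gave 6.06 (adjusted p = 1.75e-05), limma-voom 5.08 (adjusted p = 0.462) and library size only 6.48 (adjusted p = 0.0384).

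Set against each other within a library, *Bcl6* reads were 80.9, 63.6 and 288 times those of *Cux2* in control livers. In g*Spns1*-cKO livers the ratio was 28.6 in replicate 1 and 0.282 and 0.603 in replicates 2 and 3, where *Cux2* had more reads than *Bcl6*. The groups did not overlap (exact permutation p = 0.1, the smallest possible). This ratio rests on the low *Cux2* counts of the controls. *Bcl6* alone overlapped between groups, so the ratio lends no support beyond *Cux2* itself. It is among the ratios counted above.

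**Figure D3:**
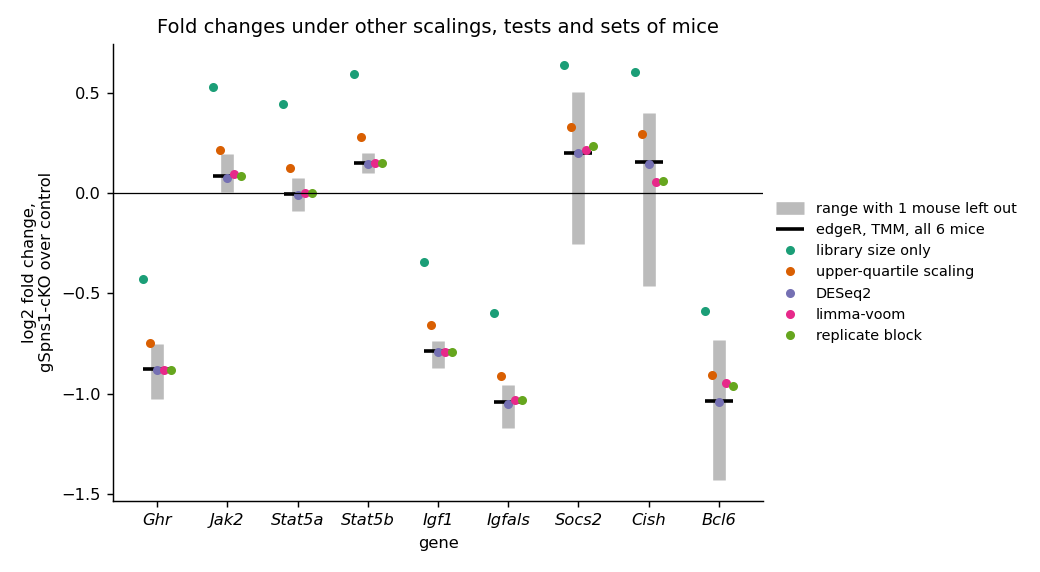
Log2 fold change of 9 of the genes (*Cux2* left out because of its scale) by edgeR with TMM scaling and all 6 mice (black line), with 1 mouse left out in turn (grey bar, lowest to highest) and under 5 other settings (dots). The values for *Ghr*, *Igf1*, *Igfals* and *Bcl6* stay below 0 throughout, and library size only lies highest for each gene, at -0.43 for *Ghr*.

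Sex-biased liver genes are the readout on which BCL6, CUX2 and STAT5 are known to act. Of 18 male-biased genes, all were tested and 14 were called lower in g*Spns1*-cKO livers, where 20.5% of all tested genes were. The median log2 fold change of the list was -4.29. The 3 g*Spns1*-cKO livers were below all controls for 18 of 18, where 26.9% of all tested genes were. *Hsd3b5*, a steroid dehydrogenase gene, had 7088, 5249 and 2910 counts in controls, as against 6, 2 and 2 in g*Spns1*-cKO livers (log2 fold change -10.93, standard error 0.53, adjusted p = 3.82e-05). *Slco1a1*, an organic anion uptake transporter gene, had 14791, 13161 and 8196 counts against 148, 95 and 105 (log2 fold change -7.11, adjusted p = 1.26e-06). *Elovl3*, a fatty acid elongase gene, was at -7.29 on the same scale (adjusted p = 0.00766). *Mup3*, a urinary pheromone carrier gene of a family with related members, was at -6.95 (adjusted p = 0.0220). The 4 genes not called were *Mup20*, *C6*, *Cyp4a12a* and *Cyp4a12b*, at -4.22, -2.67, -4.97 and -3.67. DESeq2 and limma-voom each called 17 of the 18 lower. In each of the 4 genes replicate 1 was the highest of the g*Spns1*-cKO livers, as it was for all 18 genes of the list. *Cyp7b1*, an oxysterol hydroxylase gene, was even between those livers, with 784, 604 and 763 counts against 10398, 12861 and 9655 in the controls (log2 fold change -4.36, adjusted p = 1.29e-07). Hepatocyte markers differed by -0.51 on the log2 scale on average, as given above. Reads in sequence shared with related genes are uncertain, for the Mup genes and for the cytochrome P450 genes on both lists. Both lists were written with earlier results of these data known, large decreases of Mup genes among them. Their counts beside the share of all tested genes are therefore not a test.

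Of 21 female-biased genes, 14 had enough reads to be tested. Of these, 8 were called higher and 1 lower, where 21.3% of all tested genes were called higher and 20.5% lower. The median log2 fold change of the 14 was 2.29. A gene at 0 in controls passes the read filter only if it is high in g*Spns1*-cKO livers, so the counts and the median do not describe the whole list. *Cyp2b9* had 5, 4 and 22 counts against 143, 8277 and 7057, and *Cyp2a4* had 21, 4 and 10 against 161, 3319 and 3004 (log2 fold changes 8.47 and 7.05, adjusted p = 0.0386 and 0.0312). *Cyp2b9* and *Cyp2a4* encode cytochrome P450 enzymes of steroid and drug metabolism. *Nipal1*, a magnesium transporter family gene, rose by 3.28 on the log2 scale (adjusted p = 0.000168). *Sult3a1*, *Prom1*, *Fmo2* and *Abcd2* were also called higher, with log2 fold changes of 5.08, 2.79, 2.49 and 2.09. *Sult3a1* had 1, 0 and 0 counts in controls and 16, 26 and 18 in g*Spns1*-cKO livers, so its fold change is a ratio to the floor. The gene called lower was *Cyp17a1*, of steroid synthesis, at -1.43 (adjusted p = 8.75e-05). The 7 genes not tested had at most 9 counts in any control liver, and *Cyp2b13* among them had 0, 631 and 190 counts in the g*Spns1*-cKO livers.

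The g*Spns1*-cKO replicate 1, which had the low *Cux2* count, also lay apart from the other g*Spns1*-cKO livers on the male-biased list. It was the highest of the 3 g*Spns1*-cKO livers for 18 of 18 male-biased genes and the lowest for 10 of the 14 female-biased genes tested, where over all tested genes it was the highest in 39.2% and the lowest in 36.4%. The median male-biased gene differed from the control mean by -2.73 on the log2(CPM + 1) scale in replicate 1, and by -5.13 and -5.05 in replicates 2 and 3. For the female-biased genes tested these medians were 1.16, 2.07 and 1.49, so that replicate 1 was the lowest but nearer to replicate 3 than replicate 3 was to replicate 2. Without replicate 1, 18 male-biased genes were called lower, with a median of -6.96, and 9 female-biased genes higher. Without control replicate 1, control replicate 2 or g*Spns1*-cKO replicate 3, 5 female-biased genes were called higher. Replicate 1 was also the highest of the g*Spns1*-cKO livers for *Ghr*, *Igf1* and *Igfals*, and without it their log2 fold changes were -1.02, -0.87 and -1.07, each still called.

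**Figure D4:**
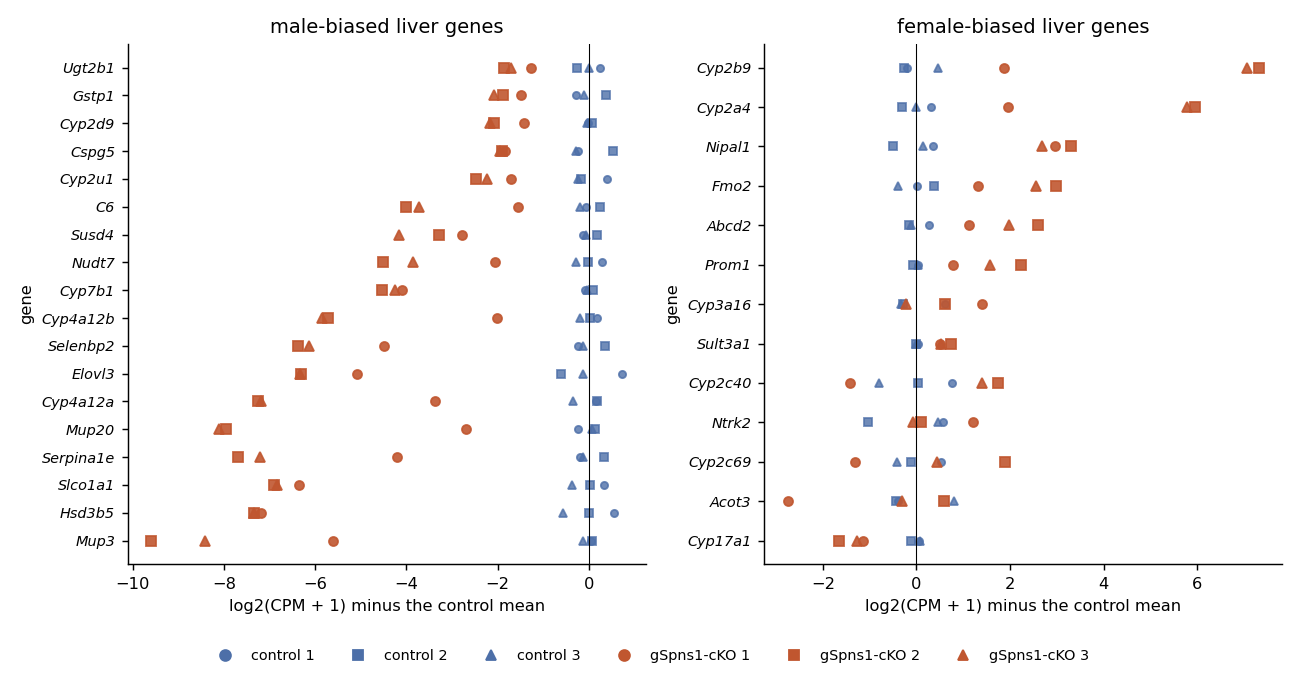
Log2(CPM + 1) minus the control mean (x axis) of tested male-biased (left) and female-biased (right, 1 tested gene not drawn) genes, 1 symbol per mouse (blue, control; orange, g*Spns1*-cKO). All orange symbols on the left lie below the controls, with replicate 1 (circles) nearest to them, and for *Cyp2b9* and *Cyp2a4* on the right replicate 1 lies between the controls and replicates 2 and 3.

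Of 29 other genes of receptor signalling and its brakes, all tested, 8 were called higher and 3 lower, with a median log2 fold change of 0.088. Over all tested genes 21.3% were called higher and 20.5% lower, so the higher share is near the background. *Prlr*, the prolactin receptor gene, which also signals through JAK2 and STAT5, had 58.8, 56.7 and 58.8 CPM in controls, as against 79.6, 88.6 and 98.6 CPM in g*Spns1*-cKO livers (log2 fold change 0.61, standard error 0.11, adjusted p = 0.00157). *Socs5*, of the suppressor family, and *Grb10*, an adaptor that restrains IGF and insulin receptor signalling, rose by 0.97 and 0.99 on the log2 scale (adjusted p = 0.00133 and 0.00743). *Sirpa*, an inhibitory membrane receptor of macrophages, rose by 1.98 (adjusted p = 1.43e-05), while the macrophage markers rose as given above, and their part in it was not tested. The other genes called higher were *Stat4*, *Ptpn2*, *Jak1* and *Pias1*, at 2.36, 0.55, 0.38 and 0.37, and *Stat4* had at most 3 counts in any control. The brakes *Socs3* and *Socs1* overlapped between groups, with log2 fold changes of 0.04 and 0.31 (adjusted p = 0.954 and 0.559). The genes called lower were *Sh2b1* and *Sh2b3*, whose products bind JAK2, and *Socs7*, with log2 fold changes of -0.35, -0.38 and -0.52. With library size only these counts were 17 higher and 0 lower, without g*Spns1*-cKO replicate 3 they were 5 and 0, and without control replicate 3 the lower count was 1.

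The partners of IGF-1 in blood and at the cell surface gave 10 of 11 genes for testing, with 4 called higher and 2 lower. Of all tested genes, 41.8% were called in either direction, 21.3% as higher and 20.5% as lower. *Igfbp1*, an IGF binding protein gene, went from 56.7 ± 17.7 CPM in control livers to 670 ± 120 CPM (SD, n = 3), which was 3.56 higher on the log2 scale (standard error 0.26, adjusted p = 2.71e-05). *Igfbp3*, whose product forms the circulating complex with the products of *Igf1* and *Igfals*, had 16.6, 13.2 and 14.4 CPM against 20.7, 33.1 and 26.1 CPM, and rose by 0.85 on the log2 scale (adjusted p = 0.00323). *Igf1r*, the IGF-1 receptor gene, and *Igfbp7*, of the binding protein family, rose by 1.63 and 1.06 (adjusted p = 0.00221 and 9.36e-05). *Igfbp4* and *Insr*, the insulin receptor gene, were called lower, at -0.72 and -0.40 (adjusted p = 0.00666 and 0.0158). Without control replicate 3 or g*Spns1*-cKO replicate 3, 1 of these genes was called lower. *Igf2* was not tested, with at most 2 counts in any liver. Endothelial and stellate cell markers, other cells that express binding proteins, summed to 141 to 158 and 192 to 221 CPM in controls and 209 to 255 and 511 to 557 CPM in g*Spns1*-cKO livers, and their part in these differences was not tested.

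Among 15 transcription factors that act with STAT5 on liver genes, 5 were called lower and 2 higher, with a median of -0.40. The share called is near the 41.8% of all tested genes. *Cebpa*, a hepatocyte factor gene, had 538 ± 54.0 CPM in control livers and 203 ± 47.5 CPM in g*Spns1*-cKO livers (log2 fold change -1.41, adjusted p = 0.000213). *Foxa3* and *Cebpb*, factor genes of the same families as *Foxa2* and *Cebpa*, fell by 1.34 and 1.25 on the log2 scale (adjusted p = 0.000543 and 0.000486). *Onecut1*, a hepatocyte factor gene that growth hormone is known to induce, had 5.51, 10.7 and 2.85 CPM against 1.64, 2.79 and 2.59 CPM, and its log2 fold change was -1.44 (standard error 0.47, adjusted p = 0.0434). *Rxra*, a nuclear receptor partner gene, was also called lower, at -0.87, and *Foxa2* and *Trim24* were called higher, at 0.49 and 0.31. The count of 2 higher was 0 without control replicate 1, g*Spns1*-cKO replicate 2 or g*Spns1*-cKO replicate 3, 1 without control replicate 2 or 3, and 3 without g*Spns1*-cKO replicate 1. With library size only the median of this list was 0.047, on the other side of 0. The lower level of hepatocyte markers on average stood beside these values, and its part in them was not tested.

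The 5 genes whose pattern over the 6 libraries was nearest to that of *Igf1* were *Klhl24*, *Fxyd1*, *Acsf3*, *Inca1* and *Paics*. Their root mean square difference from *Igf1* was between 0.0365 and 0.0454 on the log2 scale, after centring on the control mean. Their own log2 fold changes were between -0.86 and -0.78, beside -0.79 for *Igf1*. Among the members, *Ghr* (0.186) and *Igfals* (0.222) were the nearest and *Cux2* (3.32) the farthest. Of the 8009 genes averaging 10 CPM or more, 716 lay within 0.2 of *Igf1*, so the pattern was a common one.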

How the data were processed

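Libraries were made from poly-A RNA of whole liver and sequenced by a service company. The authors deposited raw read counts per gene, not normalized. The submitters' processing notes name fastp, HISAT2 2.0.5, featureCounts 1.5.0-p3 and mm10, and the strand setting is not given in the sources used here. The deposited table also holds FPKM values and the authors' own group means, fold changes and p-values, which were not used. Gene lengths, as deposited, served only for levels per kilobase. Of 54532 genes listed, 54495 were found in GENCODE M21 (GRCm38), 98.3% of them at the same coordinates.

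The main tests used edgeR 4.0.16 under R 4.3.3 (filterByExpr, TMM, quasi-likelihood test with the robust setting, Benjamini-Hochberg adjustment over 15449 genes, threshold 0.05), on all 6 libraries with genotype as the only term. An adjusted p in the text is from this fit unless another tool is named. Standard errors are the log2 fold change over the square root of F, and 95% intervals use the t quantile of the fit. P-values measure the spread between these mice. Exact permutation tests used log2(CPM + 1), or the log2 ratio, over all 20 assignments of the 6 libraries. DESeq2 1.42.0, limma-voom (limma 3.58.1), scaling by library size only or by the upper quartile, 2 other filters, a replicate block, each mouse left out, a threshold of 0.01 and a limit of 1.5-fold were the alternatives. Replicates of a group differed by more than sampling noise (chi-square per degree of freedom of at least 42.5), so each counted as 1. The scripts were tested on simulated data.

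The members and lists were chosen with earlier results of these data known. All 10 members are named, with *Spns1*, up to 4 genes of each of 6 other lists (largest log2 fold change at an adjusted p under 0.05 and at least 1 CPM in a group), *Socs1*, *Socs3*, *Prlr*, *Onecut1*, *Igfbp3*, *Igf2*, sex chromosome transcripts and the 5 genes most like *Igf1*. Of the female-biased list, 1 gene was counted with it and is not reported here. Other genes called in small numbers were named after their values were seen. Of all tested genes, 21.3% were called higher and 20.5% lower. The marker lists not given in the report had these numbers called higher and lower of those tested. They were 4 and 0 of 5 for neutrophils, 2 and 1 of 10 for lymphocytes, 5 and 0 of 7 for endothelium, 6 and 0 of 8 for stellate cells, 6 and 0 of 6 for cholangiocytes, 2 and 1 of 5 for erythroid cells, and 0 and 1 of 1 for adipocytes and muscle.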

Additional observations from a re-analysis of the deposited data

How the results depend on the processing

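Of 149 log2 fold changes of single members in an alternative fit, 131 kept their direction and their side of the threshold. The number of members called lower was between 2 and 4 in every alternative fit, and *Igf1* and *Igfals* were called lower in each. With library size only, 7289 genes were called higher and 970 lower, 4 members were higher with a median of 0.48 over the members, and the higher and lower counts were 17 and 0 for signalling partners and brakes and 7 and 0 for IGF partners. In the same setting 5 liver transcription factors and 4 sex chromosome transcripts were higher, the median of the transcription factors was 0.047, and *Stat5a* was at 0.44. With upper-quartile scaling 1 member was higher and the members' median was 0.17, 0 signalling genes and 1 IGF partner were lower, and *Stat5a* was at 0.13. DESeq2 called 1 member higher. With limma-voom 5 female-biased genes were higher and *Stat5a* was at 0.0017. With no read filter beyond 1 count, 8 transcription factors were lower. With at least 10 counts in every library, 4 female-biased genes were higher, *Stat5a* was at 0.039, and *Cux2* was removed by the filter.

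At an adjusted p under 0.01, 1983 genes were higher and 1907 lower, 5 signalling genes were higher and 0 lower, 1 IGF partner was lower, 0 transcription factors and 0 sex chromosome transcripts were higher, and 4 female-biased genes were higher. With a limit of 1.5-fold, 1839 genes were lower, 5 signalling genes were higher and 0 lower, 1 IGF partner was lower, and 0 transcription factors and 0 sex chromosome transcripts were higher. With 1 mouse left out, the members called higher numbered 0 to 1 and their median was between -0.36 and 0.041, signalling genes numbered 5 to 8 higher and 0 to 4 lower, and IGF partners 1 to 2 lower. In the same fits 0 to 3 transcription factors, 5 to 9 female-biased genes and 0 to 1 sex chromosome transcripts were higher. *Stat5a* was then between -0.090 and 0.074, *Socs2* between -0.25 and 0.50 and *Cish* between -0.47 and 0.40. Apart from filters and mice left out, which change the genes or samples fitted, the cause of these moves was not tested.

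Libraries with the same replicate number shared only that number. Their deviations from the group means correlated between -0.022 and 0.047, and 2 of 6 libraries correlated best with their own number. With the replicate number as a block 6100 genes were called, and *Bcl6* was called lower at -0.96 (adjusted p = 0.00348 from edgeR), which brought the members called lower to 4. Low counts limit *Cux2* in controls. *Cish*, with 122 to 489 counts in a library, is limited by the spread between mice. Its coefficient of variation was 31.2% in controls and 60.6% in g*Spns1*-cKO livers.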
